A study of Saccharomyces cerevisiae with 15 samples.

Results

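STE3, SAG1 and AFB1 are genes that budding yeast transcribes in α cells and keeps low in a cells. The 3 genes were picked by symbol, each is read by 1 probe set, and together they are 3 of the 5449 genes measured on the yeast expression array. Total RNA was hybridised to 15 arrays, 3 for each of 5 strains grown to mid-log phase in rich medium, in a study of TREX-2, the complex of Thp1, Sac3, Sus1 and other subunits that links gene transcription to the export of mRNA through the pores of the nucleus. The thp1∆ and sus1∆ strains carry the alleles his3∆1 and leu2∆0 together with lys2∆0 and ura3∆0, with THP1 or SUS1 replaced by KanMX, and their wild type, BY4742, carries the same 4 auxotrophic markers. The sac3∆ strain carries his3∆1 and leu2∆0 together with met15∆0 and ura3∆0, with SAC3 replaced by KanMX, and its wild type is BY4741, with the same 4 markers and SAC3 intact. Each deletion is represented by 1 strain, and its 3 arrays are given as biological replicates with no word on separate cultures, so p-values measure the spread between these arrays only. Values are intensities in arbitrary units, and levels are compared between strains for the same probe sets, not between probe sets.

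In α cells the MATα1 protein, together with the general factor Mcm1, turns on the α-specific genes, whereas in a cells they are left without that activator. STE3 encodes the receptor through which α cells sense the a-factor pheromone, SAG1 encodes α-agglutinin, the cell wall protein that binds a cells during mating, and AFB1 encodes a secreted protein that acts as a barrier to a-factor. The a-specific genes are the counterpart, repressed in α cells by MATα2 with Mcm1, and a further set of mating genes is induced in both cell types through the transcription factor Ste12 when pheromone is sensed. STE3 (YKL178C) lies on chromosome XI, SAG1 (YJR004C) on chromosome X and AFB1 (YLR040C) on chromosome XII.

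The labels give MATa for all 5 strains, but the arrays fell into 2 classes that do not match this. STE3 ranged between 6662 and 9472 units on the 9 thp1∆, sus1∆ and BY4742 arrays, against 157 to 564 units on the 6 sac3∆ and BY4741 arrays. HMRA1, which reads the a1 transcript of a cells, behaved in the opposite way. It was at 6.75, 6.99 and 8.84 units in thp1∆, at 8.10, 8.96 and 12.6 units in sus1∆ and at 11.6, 11.2 and 14.3 units in BY4742, whereas it reached 1349, 1475 and 1065 units in sac3∆ and 1470 and 1917 units on the 2 BY4741 arrays with a value. BY4742, thp1∆ and sus1∆ therefore carried the expression of α cells, and each mutant was read only against the wild type of its own class.

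The median intensity of the arrays lay between 1260 and 1460 units, and Spearman correlations between arrays of 1 strain were 0.969 to 0.998. Each deleted gene was at 22.8 units or lower on its mutant's arrays. BY4741 replicate 3 stood apart with 862 of 5900 probe sets left empty by the authors' model, against 0 to 22 on each of the other 14 arrays. As a sign of RNA quality, the 3′/5′ ratio of the SRB4 control averaged 12.5 ± 5.95 in thp1∆, 4.92 ± 0.294 in sus1∆ and 4.40 ± 0.197 in BY4742, and 10.4 ± 1.76 in sac3∆ and 6.50 ± 0.468 in BY4741 (SD, n = 3 each). Its part in the results for thp1∆ and sac3∆ was not tested.

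The a-factor receptor gene was high in all α strains, but its level was read to set that class, so this is no separate result. With no filter on low values it was called lower in sac3∆ than in BY4741. STE3 read 9428, 8831 and 7463 units in thp1∆, and 9472, 9354 and 9139 units in sus1∆, against 7299, 6662 and 6861 units in BY4742. All 3 arrays of each mutant were above all BY4742 arrays, by a narrow margin for thp1∆ replicate 3. The means were 8574 ± 1008 units in thp1∆, 9322 ± 169 units in sus1∆ and 6941 ± 326 units in BY4742 (SD, n = 3 each). The log2 fold change was 0.30 ± 0.19 in thp1∆ (SE, 95% confidence interval -0.11 to 0.71) and 0.43 ± 0.19 in sus1∆ (0.01 to 0.84), and neither met the criteria for a changed gene, which were an adjusted p below 0.05, a 1.5-fold change and a difference of means above 100 units (limma adjusted p = 0.187 and 0.114). These p-values rest on a spread shared by all 15 arrays. With the 6 arrays of each comparison alone they were 0.0171 in thp1∆ and 0.000274 in sus1∆, and the fold stayed below the minimum. The direct comparison of thp1∆ with sus1∆ gave a log2 fold change of -0.13 ± 0.19 (-0.54 to 0.28, limma adjusted p = 0.590), with overlapping arrays.

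In the sac3∆ strain STE3 read 157, 165 and 237 units, against 344, 323 and 564 units in BY4741. All sac3∆ arrays were below all BY4741 arrays, and BY4741 replicate 3, the array with many empty probe sets, was the highest. The means were 186 ± 43.9 and 410 ± 134 units (SD, n = 3 each), a log2 fold change of -1.12 ± 0.19 and a 2.17-fold lower level. These values are under the 600 units below which a gene was removed when at least 50% of the arrays compared were that low, so STE3 was not tested with the filter. With no filter it was called lower (limma adjusted p = 0.000458), in a comparison where 13.0% of 5449 genes were called in either direction and 4.50% lower. Without each array in turn the log2 fold change ranged between -1.30 and -0.86. The response of STE3 in thp1∆ minus that in sac3∆ was 1.42 ± 0.27 on the log2 scale (limma adjusted p = 0.00444 with no filter, where 7.70% of genes were called for this difference). In total RNA of a culture, fewer cells that express a gene and less of its RNA per cell cannot be told apart. How far the STE3 values of sac3∆ and BY4741 stand above probe-level background was not tested.

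**Figure D1:**
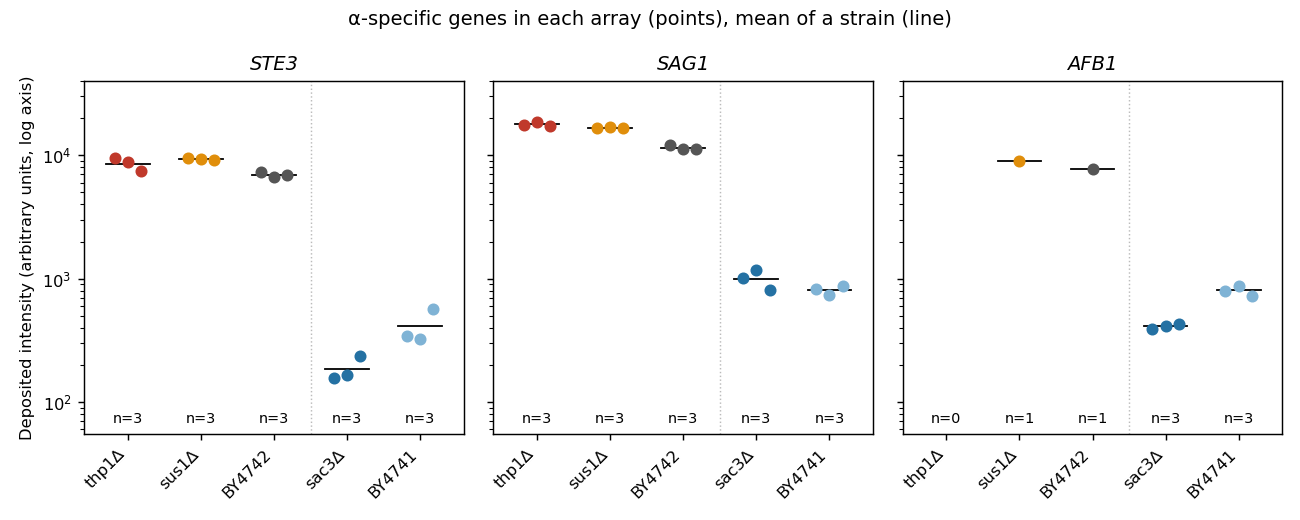
Intensity of STE3, SAG1 and AFB1 on each of the 15 arrays (arbitrary units, log axis), with points for arrays, a line for the strain mean and n for the arrays with a value. STE3 sits between 6662 and 9472 units in thp1∆, sus1∆ and BY4742 and between 157 and 564 units in sac3∆ and BY4741, and AFB1 has 0, 1 and 1 values in thp1∆, sus1∆ and BY4742.

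SAG1 was called higher in thp1∆. It read 17726, 18474 and 17239 units in thp1∆, and 16790, 16982 and 16586 units in sus1∆, against 12036, 11269 and 11145 units in BY4742. The 6 mutant arrays were all above the 3 BY4742 arrays, and the 3 thp1∆ arrays were also above the 3 sus1∆ arrays. In thp1∆ the log2 fold change was 0.63 ± 0.10 (0.41 to 0.86), a 1.55-fold rise that was called (limma adjusted p = 0.000171). By these criteria 21.1% of the 4231 genes tested in thp1∆ were called, and 14.9% of the genes tested were called higher. The call was close to the fold minimum, and it was lost when arrays were scaled to a common median (log2 fold change 0.51, adjusted p = 0.000784) or quantile normalised (0.55, adjusted p = 0.000846). In sus1∆ the log2 fold change was 0.55 ± 0.10 (0.32 to 0.77), or 1.46-fold, with a limma adjusted p of 0.00171 and a fold just under the minimum. In sus1∆ 4.86% of 4304 genes were called. The difference between thp1∆ and sus1∆ was 0.09 ± 0.10 on the log2 scale (-0.14 to 0.31, limma adjusted p = 0.503), in a comparison in which 17.4% of genes were called.

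In sac3∆ SAG1 read 1010, 1166 and 813 units, against 820, 740 and 866 units in BY4741, and the arrays of the strains overlapped. The log2 fold change of 0.29 ± 0.10 (0.06 to 0.51) did not reach 1.5-fold (limma adjusted p = 0.0369), and with the 6 arrays alone the adjusted p was 0.209. The value moved with single arrays, to 0.17 without sac3∆ replicate 2 and to 0.43 without sac3∆ replicate 3, and median scaling gave 0.17 (adjusted p = 0.196). SAG1 was the member tested with the filter in this comparison, in which 12.1% of 4308 genes were called. Its response in thp1∆ minus that in sac3∆ was 0.34 ± 0.15 on the log2 scale and was not called (limma adjusted p = 0.110), where 6.41% of the genes tested were.

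AFB1 could be compared in full only between sac3∆ and BY4741. It read 395, 413 and 425 units in sac3∆, against 800, 879 and 729 units in BY4741, with no overlap. The means were 411 ± 15.5 and 803 ± 75.2 units (SD, n = 3 each), a log2 fold change of -0.96 ± 0.08 and a 1.95-fold lower level. As with STE3, it was removed by the filter, and with no filter it was called lower (limma adjusted p = 0.000131). In the α strains the AFB1 cell was empty on 7 of 9 arrays, as the methods describe for values that dChip takes as model outliers, and no thp1∆ array had a value. The remaining values were 9046 units in sus1∆ replicate 2 and 7686 units in BY4742 replicate 2. With 1 array in each strain the fitted log2 fold change in sus1∆ was 0.24 ± 0.15 (limma adjusted p = 0.291), and its SE borrows the spread of the sac3∆ and BY4741 arrays.

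The empty cells were not spread evenly over genes. MF(ALPHA)1 and MF(ALPHA)2, which encode the α-factor pheromone, were empty on all 9 arrays of the α strains, and with AFB1 they made up 25 of the 68 empty cells of those arrays, 9 of 38 in thp1∆, 8 of 18 in sus1∆ and 8 of 12 in BY4742. None of these 3 probe sets was empty in sac3∆ or BY4741. There MF(ALPHA)1 read 63.4, 79.8 and 52.1 units in sac3∆ and 84.1, 52.0 and 95.3 units in BY4741, and MF(ALPHA)2 read 107, 107 and 126 units in sac3∆ and 147, 108 and 143 units in BY4741. Both genes overlapped between the strains, at log2 fold changes of -0.22 ± 0.25 and -0.21 ± 0.14 (SE).

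The wild types gave the scale of the cell-type difference. Since STE3 was read to set the classes, its difference between the wild types is no separate support for them. STE3 was 17.5-fold higher in BY4742 than in BY4741 (log2 fold change 4.13 ± 0.19), SAG1 was 14.2-fold higher (3.83 ± 0.10) and AFB1, with 1 BY4742 array, was 9.60-fold higher (3.26 ± 0.12). SAG1 and AFB1 were called among the 1.10% of 4291 genes called with the filter (limma adjusted p = 8.06e-11 and 2.50e-05). The p of AFB1 assumes that its lone BY4742 array varies like the arrays of the other strains. STE3 was removed because the 3 BY4741 arrays are under 600 units, and it was called with no filter, where 1.62% of genes were (limma adjusted p = 9.83e-09). The levels of STE3 ran in the order sus1∆, thp1∆, BY4742, BY4741 and sac3∆, and those of SAG1 in the order thp1∆, sus1∆, BY4742, sac3∆ and BY4741. Among neighbours in these orders, the arrays of sus1∆ and thp1∆ overlapped for STE3 and those of sac3∆ and BY4741 overlapped for SAG1, and neither gene was called between thp1∆ and sus1∆.

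**Figure D2:**
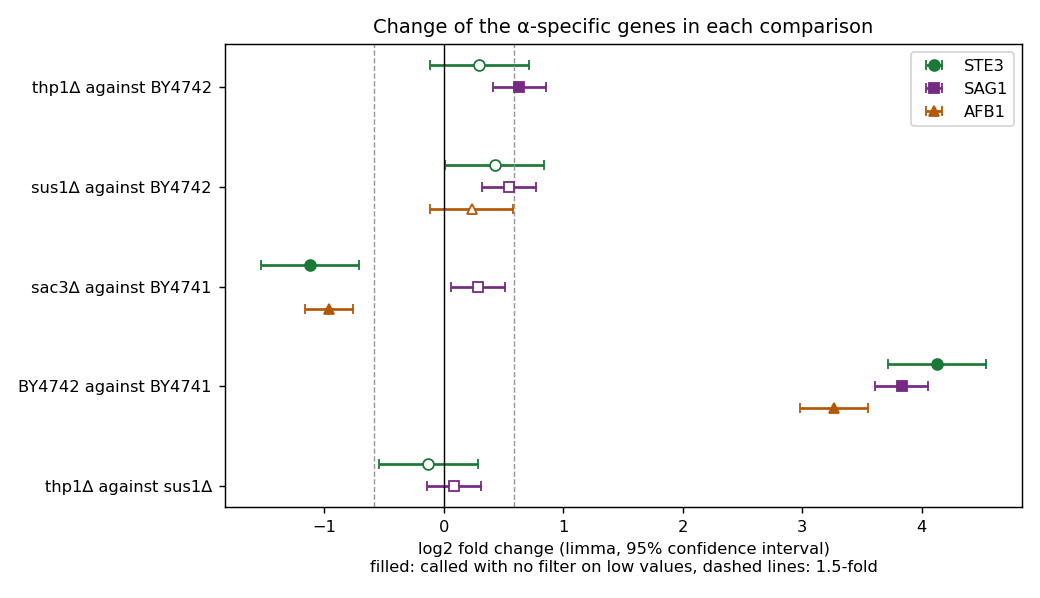
Log2 fold change of each α-specific gene with its 95% confidence interval in 5 comparisons, filled where the gene was called with no filter and open where it was not, with dashed lines at 1.5-fold. The 3 genes lie between 3.26 and 4.13 in BY4742 against BY4741 and within 0.24 to 0.63 in thp1∆ and sus1∆, and STE3 and AFB1 lie at -1.12 and -0.96 in sac3∆ while SAG1 lies at 0.29.

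The activator of these genes could be followed in part. HMLALPHA1, a probe set that reads the identical α1 copies, gave 2446, 2452 and 2322 units in sus1∆, against 1801, 1869 and 1678 units in BY4742. All sus1∆ arrays were above all BY4742 arrays, and the log2 fold change of 0.43 ± 0.14 was below 1.5-fold (limma adjusted p = 0.0332). The probe set was empty on the 3 thp1∆ arrays, and it was at 35.6, 35.3 and 34.3 units in sac3∆ and at 44.1, 71.7 and 58.1 units in BY4741. MCM1, the partner of α1, changed by -0.08 ± 0.07 in both thp1∆ and sus1∆ and by 0.19 ± 0.07 in sac3∆ on the log2 scale, and was called in none of them. HMRA2, whose probe set can also read α2 copies that share its sequence, rose in thp1∆, where it read 7048, 7129 and 7676 units against 3088, 2866 and 2886 units in BY4742 (log2 fold change 1.31 ± 0.15, limma adjusted p = 1.25e-05).

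The a-specific genes, the counterpart of the members in a cells, were called higher in thp1∆ and in part in sus1∆. The list held STE2, the α-factor receptor gene, STE6, the a-factor exporter gene, MFA1 and MFA2, the a-factor genes, BAR1, the protease gene that degrades α-factor, AGA2, the a-agglutinin subunit gene, and ASG7. With no filter all 7 were called higher in thp1∆ (median log2 fold change 2.49, against 0.05 over all genes), where 15.3% of all genes were. With the filter 1 of the 7 was tested, MFA1, which rose by 1.49 ± 0.15 on the log2 scale. STE2 averaged 1106 units in thp1∆ and 196 units in BY4742, and AGA2 averaged 1162 units in thp1∆ and 102 units in BY4742. In sus1∆ 4 of 7 were called higher with no filter (median 0.63), where 4.52% of all genes were, and 2 of 7 after quantile normalisation. In sac3∆ none of the 6 genes with more than 1 BY4741 array was called by limma. There 8.53% of all genes were called higher with no filter. STE2 (0.34 ± 0.11), MFA2 (0.48 ± 0.09) and ASG7 (-0.31 ± 0.14) had an unadjusted limma p below 0.05. The share of all genes with such a p was not counted, so no response of the list is read from them. BAR1, at 0.66 ± 0.18, met the criteria on 1 BY4741 array, so that its p borrows the spread of other strains, and not after median scaling.

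Summed over the 7 genes, the level per array ranged between 6984 and 8407 units in thp1∆, between 2789 and 3316 units in sus1∆ and between 1825 and 1932 units in BY4742. On the same scale it lay between 44570 and 58295 units in sac3∆ and at 39280 units on the 1 BY4741 array with all 7 values. The sums in the α mutants were below those of the a strains. Bright probe sets weigh most in such a sum, in thp1∆ that of MFA1, at a mean of 2597 units. ASG7 overlapped, at 365 to 484 units in thp1∆, 388 to 416 in sac3∆ and 442 to 628 in BY4741, and the other genes did not. HMRA1, a marker of a cells, was no higher in thp1∆ than in BY4742, at 6.75 to 8.84 units against 11.2 to 14.3 units. The part of the a-specific signal in the values of STE3 and SAG1 was not tested.

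**Figure D3:**
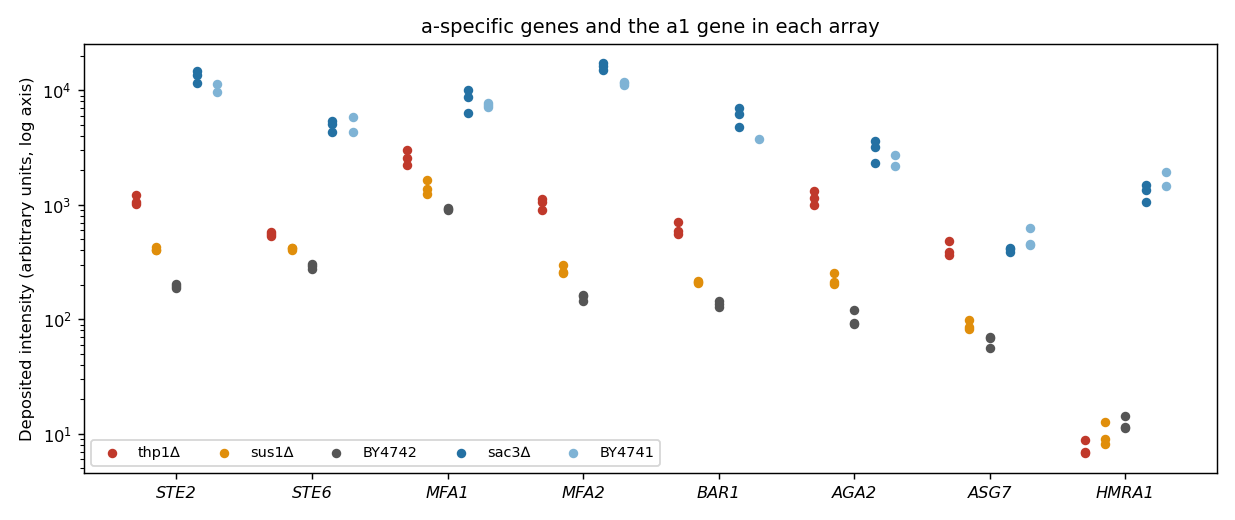
Intensity of 7 a-specific genes and of HMRA1 on each array (arbitrary units, log axis), coloured by strain in the order thp1∆, sus1∆, BY4742, sac3∆ and BY4741. STE2 averaged 1106 units in thp1∆ and 196 units in BY4742, while HMRA1 stays at 6.75 to 14.3 units on all thp1∆, sus1∆ and BY4742 arrays.

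Genes that pheromone induces in both cell types were also called higher in the α mutants. Of 13 with a value in thp1∆, 12 were called higher with no filter (median log2 fold change 1.48), against 15.3% of all genes. With the filter 7 of 8 were, against 14.9%. The 12 include PRM6, which had a value on 1 thp1∆ array, so its call borrows the spread of other arrays. FIG2 and PRM2 had values on 2 thp1∆ arrays. Without each array in turn, 11 to 12 were called with no filter. FUS1, needed for cell fusion, averaged 5988 units in thp1∆ and 2161 units in BY4742 (1.47 ± 0.21), and AGA1, the anchor subunit of a-agglutinin, averaged 14831 units in thp1∆ and 5666 units in BY4742 (1.39 ± 0.29). In sus1∆ 7 of 14 were called higher with no filter (median 0.62), against 4.52% of all genes, among them PRM1 (1.06 ± 0.24), FUS2 (1.35 ± 0.12) and AGA1 (0.86 ± 0.29), whose call was lost when any 1 of the 6 arrays was left out. In sac3∆ 2 of 14 were called, KAR3 (1.84 ± 0.18) and CIK1 (0.72 ± 0.13), which encode a kinesin and its partner, against 8.53% of all genes, and 4 of 14 without BY4741 replicate 2. In BY4742 6 of 14 were called higher than in BY4741 with no filter, against 1.16% of all genes. Among them PRM1 was at 1.40 ± 0.24 and PRM3 at 1.01 ± 0.08. Leaving out each array, 4 to 6 were called, and AGA1 lost its call without BY4741 replicate 2 or 3 or any 1 BY4742 array. PRM4 lost its call without replicate 1 of either wild type or BY4742 replicate 2. PRM4 and KAR3 lie on chromosome XVI, whose tested genes had a median log2 fold change of 0.86 in thp1∆ and 0.51 in sac3∆. PRM3 lies there too, but it had no thp1∆ value and was not called in sac3∆. Between the wild types, where PRM3 was called, the median of chromosome XVI was -0.009. The chromosomes of SAG1, STE3 and AFB1 had medians of -0.02 (X), 0.06 (XI) and 0.02 (XII) in thp1∆.

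Among 12 regulators of cell-type genes, 5 of the 10 tested were called higher in thp1∆, against 14.9% of all genes tested. They were STE12, the activator of pheromone-induced genes (1.04 ± 0.14), KAR4 (1.64 ± 0.12), a factor that acts with it, DIG1, an inhibitor of Ste12 (0.91 ± 0.06), TEC1, the filamentation partner of Ste12 (1.84 ± 0.14), and SIR3, a silencing protein gene (0.64 ± 0.09). Under median scaling and under quantile normalisation SIR3 lost its call (0.51 under both) and SIR2, another silencing gene, was called lower in thp1∆ (-0.68 and -0.67, against -0.55 as deposited), which left 4 called higher and 1 lower. With no filter 6 of the 12 were called higher in thp1∆, where 15.3% of all genes were. The gene added was SIR1, a further silencing gene, which averaged 898 units in thp1∆ and 428 units in BY4742. SIR1 was also called higher in sac3∆ with no filter, at 828 units against 491 units in BY4741, where 8.53% of all genes were. DIG1 also lies on chromosome XVI. In sus1∆ KAR4 was the 1 gene called of 10 tested (0.76 ± 0.12), where 4.86% of all genes tested were called. In sac3∆ TEC1 rose (1.02 ± 0.14) and SIR2 fell (-0.63 ± 0.11), a call of SIR2 that was lost without BY4741 replicate 3 (-0.52). These were the calls among 10 tested with the filter in sac3∆, where 12.1% of all genes tested were called. Of the pheromone signalling genes, 4 of 13 tested rose in thp1∆, against 14.9% of all genes tested. These were GPA1, the Gα gene to which Ste3 couples (0.90 ± 0.15), STE5, the scaffold gene (0.72 ± 0.14), FAR1, the cell cycle arrest gene (1.44 ± 0.16), and SST2, the gene of the Gα deactivator (1.19 ± 0.14). By limma none of 13 was called in sus1∆, where 4.86% of all genes tested were called. There 4 of 13 had an unadjusted limma p below 0.05. The share of all genes with such a p was not counted, so no response of the list is read from this. In sac3∆ 1 of 12 was called, FAR1 (0.62 ± 0.16), a share close to the 8.84% of all genes tested that were called higher. Under both scalings FAR1 was not called in sac3∆ and FUS3, the pheromone MAP kinase gene, was called lower there (-0.63 under both). Of 10 genes that process or secrete pheromone, AXL1 was the 1 called on the deposited scale, at 1.86 ± 0.08 in thp1∆ and 1.10 ± 0.08 in sac3∆, against 14.9% and 8.84% of all genes tested called higher, and it too lies on chromosome XVI. RAM2, a prenyltransferase subunit gene, was called lower in sac3∆ under median scaling (-0.66) and quantile normalisation (-0.63).

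**Figure D4:**
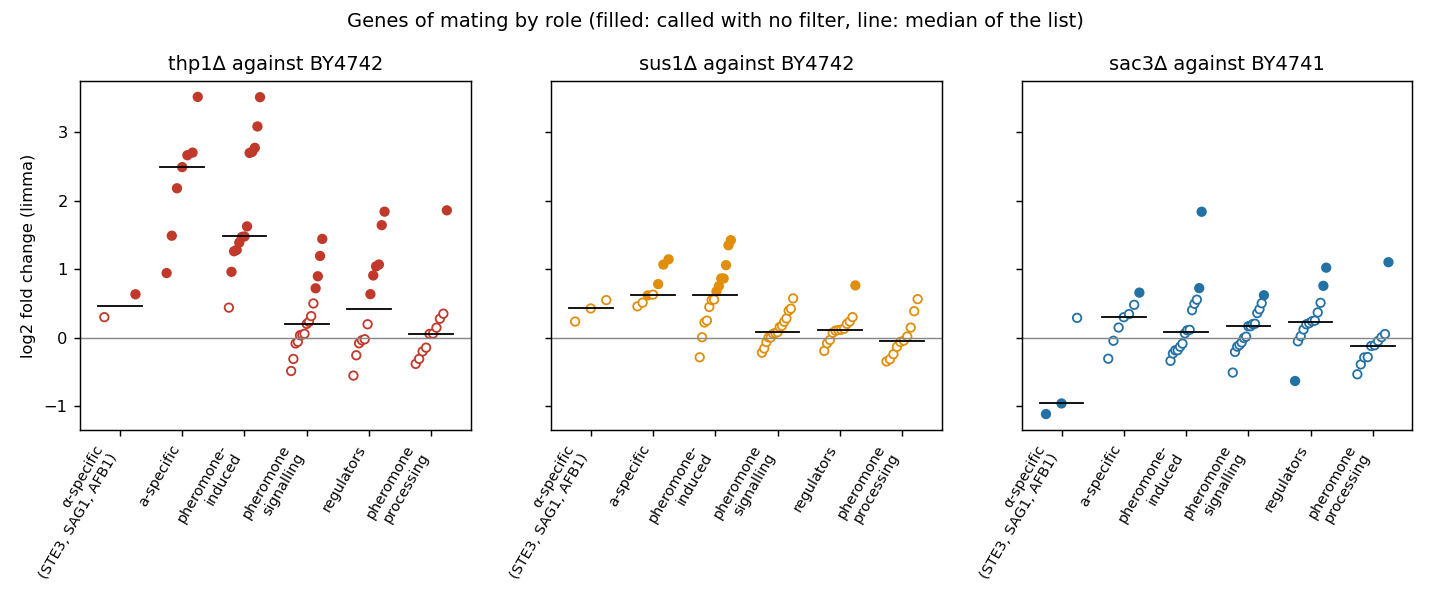
Log2 fold change of each mating gene, grouped by role, in thp1∆ and sus1∆ against BY4742 and in sac3∆ against BY4741, filled where called with no filter, with a line at the median of each list. In thp1∆ the a-specific and pheromone-induced lists have medians of 2.49 and 1.48, while SAG1 is at 0.63 and STE3 at 0.30.

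The genes next to the members on the chromosomes were compared as a local reference. In thp1∆ the neighbours of STE3 were at 0.48 ± 0.07 (COY1) and -0.14 ± 0.06 (LST4) on the log2 scale, those of SAG1 at -0.37 ± 0.08 (MRX12) and 0.67 ± 0.12 (APL1), and RIC1, next to AFB1, at 0.50 ± 0.06. APL1, which encodes an adaptor protein subunit, was the 1 neighbour called, with 2526 units in thp1∆ and 1587 units in BY4742 (limma adjusted p = 0.000294). Of all genes tested in thp1∆, 21.1% were called. The change of APL1 was 0.67 beside 0.63 for SAG1. Median scaling moved genes with values on all arrays by -0.12 in thp1∆, which took APL1, like SAG1, under 1.5-fold. In sac3∆ LST4 was at -0.26 ± 0.07 (limma adjusted p = 0.0125), below 1.5-fold, and the other 4 were between 0.07 and 0.09. The other neighbour of AFB1, NFG1, was not analysed here.

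When profiles over the strain means of log2 values were each centred on their own mean, the members lay close to each other. The root-mean-square difference between STE3 and SAG1 was 0.617 over 5 strains, whereas the median over all genes was 2.45 from STE3 and 2.02 from SAG1. Among genes with a value in all 5 strains, SAG1 was the nearest to STE3 and STE3 the nearest to SAG1. Genes with no thp1∆ value, such as AFB1 and HMLALPHA1, could not be ranked there, and PRM6 was ranked on 1 thp1∆ array. Next to STE3 came YGR109W-A (1.20), MET17 (1.21), PRM1 (1.30) and PRM6 (1.55), and next to SAG1 came PRM1 (0.874), YGR109W-A (0.911), AGA1 (1.11) and PRM6 (1.13). MET17 is the gene deleted as met15∆0 in sac3∆ and BY4741, so its profile follows the strains' markers. AFB1, over the 4 strains with a value, was nearest to SPL2 (0.382), SAG1 (0.459), PHO84 (0.460), STE3 (0.526) and YGR109W-A (0.753). PHO84, the phosphate transporter gene, and SPL2 were at 89.8 to 101 units and at 20.0 to 22.4 units in thp1∆, the strain in which AFB1 had no value, while in sus1∆ they were at 5903 to 10006 units and at 319 to 684 units. These distances describe 5 strains and all share the step between the α strains and the a strains.

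**Figure D5:**
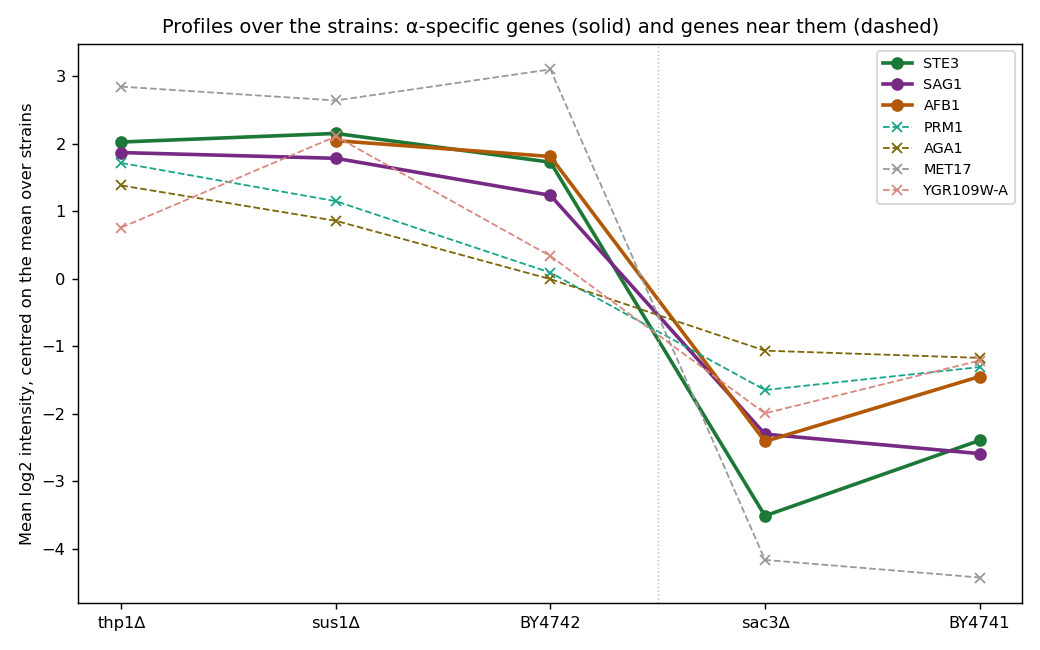
Mean log2 intensity of the α-specific genes (solid) and of 4 genes with similar profiles (dashed), each centred on its own mean over the strains, along thp1∆, sus1∆, BY4742, sac3∆ and BY4741. STE3 and SAG1 differ by a root-mean-square of 0.617, and PRM1 and AGA1 are lower in BY4742 than in the α mutants.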

How the data were processed

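The authors deposited 1 table of linear intensities per probe set, made per the labels and the study's methods from Affymetrix yeast arrays with dChip, whose model outliers are left as empty cells. No genome build is given in the sources used here. Of 5900 probe sets, 5498 carry 1 gene in the platform annotation, and 402 have none assigned. The brightest probe set was kept for each of 5449 genes. Names, chromosomes and gene order came from the RefSeq table of assembly R64.

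The log2 intensities of all 15 arrays were fitted with 5 strain groups in limma 3.58.1 (R 4.3.3). Genes were left out where 50% or more of the compared arrays were under 600 units, p-values were Benjamini-Hochberg adjusted over the rest, and a call needed adjusted p below 0.05, a 1.5-fold change and a mean difference above 100 units. Counts with no filter adjust over all genes with a value. The procedure was tested on simulated data. Empty cells were not imputed, and a strain without values drops out of that gene's fit. The number of arrays, 3 per strain, limits the precision.

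Named genes were the members, the genes of fixed mating lists, the chromosomal neighbours and the 5 genes with the nearest profiles. Members and lists were chosen with earlier results of these data known. Same-numbered sus1∆ and BY4742 arrays deviated together (r = 0.19, 0.13 and 0.11 for replicates 1, 2 and 3). Those of sac3∆ and BY4741 did so for replicates 1 and 3 (0.28 and 0.27). A fit with the replicate number as a block was also made. Other alternatives were median scaling, quantile normalisation, no filter, an offset of 100 units, an intensity trend, the compared arrays alone and leaving out each array.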

Additional observations from a re-analysis of the deposited data

Results flagged for a closer look

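The response of STE3 differed between 2 mutants of different cell type. Its log2 fold change was 0.30 ± 0.19 in thp1∆ against BY4742 (limma adjusted p = 0.187, so no direction is shown there) and -1.12 ± 0.19 in sac3∆ against BY4741, and the difference between these responses, 1.42 ± 0.27, passed the limma test over all genes with no filter (adjusted p = 0.00444). The comparison crosses cell types, since the first pair reads STE3 at 6662 to 9428 units and the second at 157 to 564 units, so mutation and cell type cannot be told apart.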

How the results depend on the processing

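No member reversed direction under any alternative run. The increase of SAG1 in thp1∆ fell below 1.5-fold, and so lost its call, after median scaling (0.51 on the log2 scale) and quantile normalisation (0.55). Median scaling moved genes with values on all arrays by -0.12 in thp1∆ and sac3∆ and by -0.08 in sus1∆. With no filter STE3 (-1.12) and AFB1 (-0.96) were called lower in sac3∆, STE3 was called higher in BY4742 than in BY4741 (4.13), and its response in thp1∆ differed from that in sac3∆ (1.42). STE3 also entered the test between the wild types after median scaling (4.11) and quantile normalisation (4.15), and without any 1 of the 3 BY4741 arrays. Leaving out each array, the log2 fold changes were -1.03 to -0.89 for AFB1 in sac3∆, called without any 1 of the sac3∆ arrays, and 3.98 to 4.38 for STE3 between the wild types. For SAG1 they were 0.61 to 0.67 in thp1∆ and 0.53 to 0.58 in sus1∆. Because the filter acts on the share of low arrays, a gene can enter or leave the test when 1 array is dropped. With no filter 326 genes were called in sus1∆ (209 with it), 88 between the wild types (47) and 419 for the difference of responses (268). Between the wild types 24 were called from the 6 arrays alone and 29 to 90 without each array, the lowest without BY4742 replicate 1 and the highest without BY4741 replicate 2. For the difference of responses 224 to 484 were called without each array, the highest without BY4741 replicate 1. With the replicate number as a block, 207 genes were called in sus1∆, SAG1 stayed at 0.55 there (adjusted p = 0.00339), and no call of a member changed in any comparison, nor did a count of calls move by over 1.5 times. Same-numbered sac3∆ and BY4741 arrays also deviated together for replicates 1 and 3 (r = 0.28 and 0.27), while replicate 2 gave 0.05. In the remaining comparisons r lay between -0.19 and 0.15. In alternatives chosen after seeing the data, the call of BAR1 in sac3∆ was lost after median scaling and without replicate 2 of either strain, that of SIR2 without BY4741 replicate 3, and that of FAR1 in sac3∆ under both scalings and without sac3∆ replicate 1 or BY4741 replicate 2. In thp1∆ the call of STE5 was lost after quantile normalisation (0.58) and that of SIR3 without thp1∆ replicate 3 (0.56). The 7 a-specific calls in thp1∆ were kept in number without each array, and in sus1∆ 3 to 4 were called. Probe-level background was not analysed here, so how far the STE3 and AFB1 values of sac3∆ and BY4741 stand above it was not tested.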
